A study of Mus musculus with 9 samples.

Results

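The genes described here encode the subunits of the mitochondrial oxidative phosphorylation complexes. Their members were all probe-sets whose mouse gene symbol starts with Nduf followed by a, b, c, s or v, with Sdh followed by a single letter from a to d, with Uqcr, with Cox4 to Cox8, or with Atp5, a rule that uses names and no signal. This gave 189 of the 45101 probe-sets on the array, which cover 90 of 18194 named genes. Complex I had 88 probe-sets for 36 genes, complex II 9 for 4 genes, complex III 16 for 8 genes, complex IV 35 for 17 genes and complex V 31 for 17 genes. The remaining 10 probe-sets, for 8 genes, belong to the Ndufaf genes, which share the name stem but encode factors that help to build complex I and are no subunits of it. Of the complex I probe-sets, 10 match several Nduf genes and were counted but not named. The complex was assigned by name stem alone, so Ndufa4 and Ndufa4l2 count as complex I and Cox7a2l as complex IV. The place of each protein was not checked.

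RNA came from primary mouse embryo fibroblasts (MEFs) of the mixed strain C57BL/6J x 129Sv/J, isolated from 13.5 day embryos and cultured to the given passage. The labels describe 3T3 growth, in which a fixed number of cells is replated every few days. There were 3 groups of 3 cultures with 1 array each, namely Tgif1 -/- cells at passage 3 (null), wild type cells at passage 3 (P3) and wild type cells at passage 5 (P5), and none of them received a treatment. The study asked whether cells that lack Tgif1, a transcriptional corepressor, take on at passage 3 the expression profile that wild type cells reach by passage 5. The null is a constitutive deletion present since before the cells were isolated, and no null culture at passage 5 was analysed here.

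Oxidative phosphorylation couples the oxidation of nutrients to the synthesis of ATP at the inner mitochondrial membrane. Complexes I and II take electrons from NADH and from succinate, complex III passes them through cytochrome c to complex IV, which reduces oxygen, and complexes I, III and IV pump protons whose return through complex V, the ATP synthase, drives ATP formation. Most subunits are encoded in the nucleus and a few core ones in mitochondrial DNA, and several complex IV subunits exist in tissue-specific forms, among them forms of heart and skeletal muscle. Fibroblasts in culture rely on glycolysis as well as on this pathway, and electrons that leak from complexes I and III are a known source of reactive oxygen species.

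Each probe-set has 1 signal on every array, given by the authors on a log2 scale, and a difference of 1 on this scale is a doubling. Tgif1 itself stood at 2.48, 3.21 and 2.50 on the null arrays, against 9.82, 9.95 and 9.72 in P3 and 10.06, 10.07 and 10.18 in P5. Array medians lay between 2.48 and 2.50, no signal lay below 2.23, and replicate arrays correlated at 0.996 to 0.999 across probe-sets. The mean of 10 fibroblast markers was 12.36 to 12.54 in the null, 12.42 to 12.46 in P3 and 12.63 to 12.72 in P5, so P5 lay above the other groups. The mean of 20 striated muscle markers was 6.09 to 6.67 in the null, 4.77 to 4.90 in P3 and 3.80 to 3.90 in P5. That of 18 macrophage markers was 4.46 to 5.06, 3.78 to 3.93 and 3.65 to 3.72, so the array means of these lists did not overlap between groups. In each of these last lists 3 markers stayed below 3 on every array. Only 1 macrophage marker had a mean signal above 6. Between P3 and P5 no macrophage marker passed the test described below, which 13.2% of all genes passed. By that test 8 of the 18 were higher in the null than in P5 (44.4%, with 11.4% of all genes). Without P5 replicate 1 there were 2. Against P3, 1 was higher in the null. In such bulk RNA, fewer cells of a type and less RNA per cell cannot be told apart.

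Nearly all subunit genes were expressed in every culture. Where a gene has several probe-sets, its brightest one (by mean signal over the 9 arrays) stands for it, and by this measure 81 of the 90 genes had a mean log2 signal above 6 and 73 above 10. The 9 genes at or below 6 were mostly forms known from other tissues. Cox6a2, Cox7a1 and Cox8b are the heart and skeletal muscle forms of complex IV subunits, Cox8c is a form of the testis, Cox4i2 is a form of lung that responds to oxygen, and Ndufa4l2 is a gene that responds to hypoxia. The others were Cox7b2, Cox7c and Ndufb4, and for Ndufb4 probe-sets that match several Nduf genes were bright, so its single-gene probe-set gives no level of the gene. Over all 189 probe-sets, 147 had a mean signal above 6 and 34 stayed below 4 on every array.

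The muscle forms of complex IV stayed near the lowest value on every array. Cox8b was at 2.23 on all 9 arrays. Cox6a2 was at 2.41 on null replicate 1 and at 2.23 on the other 8 arrays. Cox7a1 gave 2.83, 3.03 and 2.83 in the null, 2.71, 2.83 and 2.69 in P3, and 3.50, 2.92 and 2.49 in P5, so its groups overlap. Of the 20 muscle markers, 14 rose and 1 fell in the null against P5 (75.0%, with 11.4% of all genes called). Between P3 and P5, 8 fell and 1, Acta1, rose (45.0%, with 13.2% of all genes called). Examples follow, and not all of them go with these counts. Actc1, a cardiac actin, stood at 10.19, 9.41 and 9.26 in the null, at 7.33, 7.33 and 7.31 in P3 and at 3.26, 3.48 and 3.44 in P5. Acta1, the skeletal muscle actin, was highest in P5, at 12.03, 12.18 and 12.32, and rose by 1.60 over P3 (SE 0.08, adjusted p = 0.000389). Neb, which encodes nebulin, was at 2.23 on all 9 arrays, and Ckm, the muscle creatine kinase, did not exceed 2.35. These markers were chosen as examples after their values were seen. Of the 20 muscle markers, 11 rose and none fell between P3 and null (55.0%, with 2.58% of all genes called; 3 without P3 replicate 1), while none of the muscle forms of complex IV was called in any comparison.

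**Figure D1:**
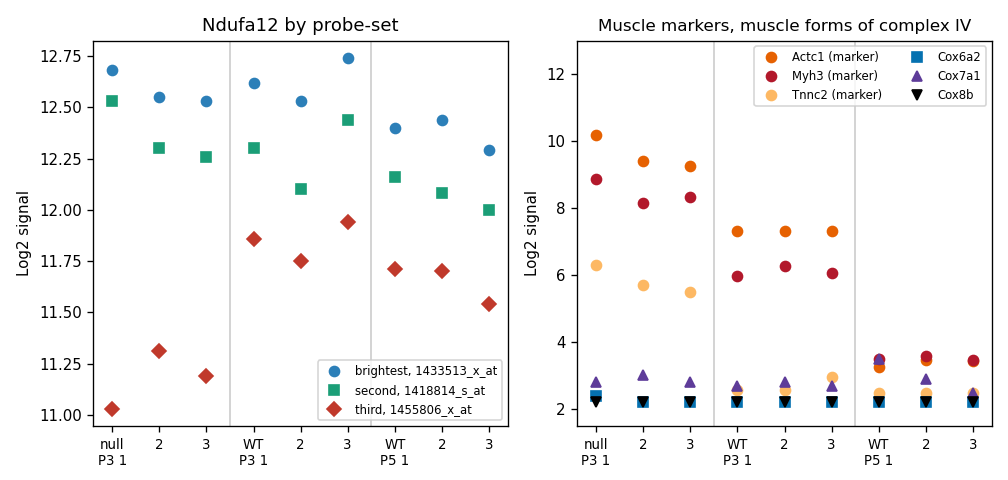
Log2 signal (y axis) on each of the 9 arrays (x axis, 3 per group), 1 point per array. Left, the 3 bright probe-sets named for Ndufa12, of which only the third in brightness is lower on the null arrays. Right, 3 of the 20 muscle markers, Actc1, Myh3 and Tnnc2, chosen among those that rose in the null, beside the muscle forms Cox6a2, Cox7a1 and Cox8b, which stay at or below 3.50 on every array.

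The first comparison, null against P3, sets cells without Tgif1 beside wild type cells at the same passage. The number of embryos behind the cultures of each genotype is not stated. A difference of genotype therefore cannot be told apart from a difference between cell isolates. Of the 189 probe-sets 1 rose and 2 fell, which is 1.59% of the members, and over all 45101 probe-sets 1.59% were called in this comparison (0.898% rose and 0.692% fell). Among probe-sets with a mean signal above 6, 2.04% of the 147 members and 4.06% of 14101 in all were called. Here and below a probe-set is called, and is said to rise or fall, when limma's moderated test of that comparison gave an adjusted p under 0.05. The median log2 difference over the 90 genes was -0.01, against 0.00 over all named genes. The 95% interval of the difference lay within 0.5 of no change for 82 of the 90 genes, so for these genes a larger difference lay outside the interval. The 82 take in genes with a mean signal at or below 6, among them Cox8b and Ndufb4. Near the lowest value a narrow interval does not show that the level of a gene was unchanged. At an unadjusted p under 0.05 there were 17 members. The share of all probe-sets or genes at that threshold is not given, here or below, so such counts have no background to be read against.

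Among members called between P3 and null, Cox6a1 rose. It encodes the form of complex IV subunit VIa found outside muscle. Its log2 signal was 14.98, 15.01 and 15.04 in the null against 14.87, 14.88 and 14.88 in P3, so the groups do not overlap. The difference was 0.13 (SE 0.02, adjusted p = 0.0315), a rise of 1.09-fold. This signal lies close to the top of the scale, where the highest value of an array was between 15.81 and 16.0. The call was lost when any of 7 arrays was left out, all but null replicate 1 and P5 replicate 3, with adjusted p of 0.058 to 0.123.

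Ndufv1 encodes the complex I subunit that binds NADH and passes its electrons into the complex. The second of its probe-sets in brightness gave 10.73, 10.63 and 10.64 in the null against 10.92, 10.85 and 10.92 in P3 and fell by 0.23 on the log2 scale (SE 0.04, adjusted p = 0.0365). The brightest Ndufv1 probe-set gave 11.01, 10.92 and 10.98 against 11.22, 11.11 and 11.19. Its difference of -0.20 (SE 0.04) did not pass the test at an adjusted p of 0.0599. For both probe-sets every null array lay below every P3 array. The remaining Ndufv1 probe-set, the dimmest at 10.35 to 10.58, differed by -0.13 (SE 0.04, adjusted p = 0.356) with overlapping groups. The call for the second probe-set was lost when any of 7 arrays was left out, all but null replicate 1 and P3 replicate 2, with adjusted p up to 0.135.

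The other probe-set that fell is the third in brightness of those named for Ndufa12, an accessory subunit of complex I. It gave 11.03, 11.31 and 11.19 in the null, 11.86, 11.75 and 11.94 in P3, and 11.71, 11.70 and 11.54 in P5, so the null arrays lay below all wild type arrays. The difference from P3 was -0.68 (SE 0.09, adjusted p = 0.0249) and that from P5 was -0.48 (SE 0.09, adjusted p = 0.028). The other bright probe-sets for this gene did not share it. The brightest differed by -0.04 (SE 0.07) between null and P3, and the next by 0.08 (SE 0.11), neither of them called. All 3 carry the endings x_at or s_at, which mark probes that can match other transcripts, and with 3 bright probe-sets at odds the level of Ndufa12 in the null is uncertain. The first call was lost without null replicate 3, P3 replicate 1 or 3, or P5 replicate 1 or 2, with adjusted p of 0.0602 to 0.0997, and the second without null replicate 1 or 3, P3 replicate 1, or P5 replicate 1 or 2, with adjusted p of 0.0623 to 0.106.

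The remaining subunits showed no called difference between null and P3 in any complex. In complex I the brightest probe-sets of the 34 genes above a mean signal of 6 ranged from -0.20 for Ndufv1 to 0.25 (SE 0.07) for Ndufb10. In complex II the 4 genes ranged from -0.13 (SE 0.06) for Sdha, the flavoprotein that oxidizes succinate, to 0.10 (SE 0.27) for Sdhc, a membrane anchor. In complex III all 8 genes lay within -0.08 and 0.09. In complex V the 17 genes lay between -0.18 (SE 0.16) for Atp5g2, 1 of the 3 genes for the c ring, and 0.12 (SE 0.18) for Atp5mpl. Cox7c, a small complex IV subunit whose only single-gene probe-set here is dim, had the widest difference, -1.05 (SE 0.34, adjusted p = 0.296). It gave 3.89, 3.37 and 4.29 in the null against 4.78, 5.23 and 4.70 in P3, and did not pass the test. All 8 Ndufaf genes were lower in the null than in P3, with a median of -0.15 and none called; at an unadjusted p under 0.05 there was 1 of their 10 probe-sets.

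**Figure D2:**
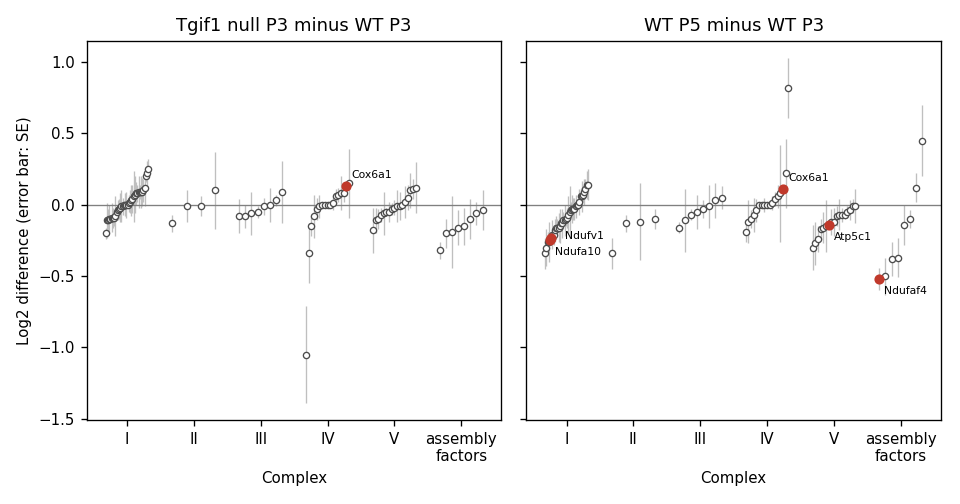
Log2 difference (y axis) of each gene's brightest probe-set, by complex (x axis), for null minus P3 (left) and P5 minus P3 (right). Points are genes, bars are the SE from limma, and filled red points passed the test, which are Cox6a1 on the left and Cox6a1, Ndufv1, Ndufa10, Atp5c1 and Ndufaf4 on the right. The lowest point on the left is Cox7c at -1.05 and the highest on the right is Cox6b2 at 0.82.

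The second comparison, P5 against P3, asks what passage changed in wild type cells. More members were called, and most of them fell. Of the 189 probe-sets 1 rose and 8 fell, 4.76% of the members, where 8.62% of all probe-sets on the array were called (4.29% rose and 4.33% fell). Among probe-sets with a mean signal above 6 the shares were 6.12% of 147 members and 22.5% of 14101 in all, and the difference between these shares was not tested. At an unadjusted p under 0.05 there were 40 members, again without a share of all probe-sets beside them. Over the 81 genes with a mean signal above 6, 64 lay below 0 (79.0%) with a median of -0.10, while over all 8384 such genes 53.8% lay below 0 with a median of -0.03.

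Of the 8 probe-sets that fell with passage 5 were of complex I, which holds 88 of the 189 members. Ndufa10, an accessory subunit, gave 12.00, 12.06 and 12.01 in P5 against 12.28, 12.25 and 12.27 in P3. It fell by 0.25 on the log2 scale (SE 0.03, adjusted p = 0.00335) and was 0.843 of its P3 level. Its null arrays, at 12.15, 12.22 and 12.15, lay between the wild type groups and overlapped with neither. This call was kept with each array left out in turn, with adjusted p up to 0.019.

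Ndufv1 fell with passage by 2 of its 3 probe-sets. The brightest gave 10.92, 10.96 and 10.94 in P5, below all its P3 values, and fell by 0.23 (SE 0.04, adjusted p = 0.0136). The second gave 10.60, 10.65 and 10.58 and fell by 0.29 (SE 0.04, adjusted p = 0.00527). The first call was lost without P3 replicate 3 or P5 replicate 1, at adjusted p of 0.0553 and 0.0567, and the other was kept with each array left out. The dimmest probe-set differed by -0.05 (SE 0.04, adjusted p = 0.647).

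Ndufs8 encodes an iron-sulfur subunit of complex I. Its second probe-set in brightness gave 11.36, 11.44 and 11.31 in P5 against 11.80, 11.60 and 11.73 in P3 and fell by 0.34 (SE 0.06, adjusted p = 0.017). The third fell by 0.33 (SE 0.06, adjusted p = 0.019). The brightest Ndufs8 probe-set differed by -0.26 with a wider error (SE 0.14, adjusted p = 0.427) and was not called. The first call was lost without P3 replicate 1 or 3 or P5 replicate 1 or 3 and the second also without P5 replicate 2, with adjusted p of 0.051 to 0.0727.

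Ndufaf4, a factor that helps to assemble complex I, showed the largest decrease with passage among the called members. Its brightest probe-set gave 9.92, 10.00 and 9.86 in P5, against 10.37, 10.52 and 10.46 in P3 and 10.25, 10.38 and 10.53 in the null. It fell by 0.52 (SE 0.08, adjusted p = 0.0124), to 0.696 of its P3 level. A dimmer probe-set fell by 0.45 (SE 0.08, adjusted p = 0.0183), and for both the null arrays overlapped with P3 and lay above all P5 arrays. The first call was lost without P5 replicate 1 (adjusted p = 0.0509), and the second without P3 replicate 2 or 3 or P5 replicate 2 or 3, with adjusted p of 0.0506 to 0.0704.

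In complex V only Atp5c1, the central shaft that turns inside the synthase, was called. It gave 13.49, 13.46 and 13.44 in P5 against 13.65, 13.58 and 13.58 in P3 and fell by 0.14 (SE 0.03, adjusted p = 0.0476), a call lost without any of 7 arrays, all but null replicate 1 and null replicate 3, with adjusted p up to 0.146. All 17 complex V genes had a difference below 0, with a median of -0.12. The 17 differences were small, from -0.30 (SE 0.16) for Atp5g2 to -0.01 for Atp5l and Atp5b, and 16 of them did not pass the test. Leaving out P3 replicate 3 brought the median to -0.04, while leaving out P3 replicate 2 brought it to -0.17.

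All 4 complex II genes also lay below 0, led by Sdhb, the iron-sulfur subunit, at -0.34 (SE 0.11, adjusted p = 0.156). Sdhb gave 11.92, 11.95 and 11.94 in P5 and 12.37, 12.05 and 12.42 in P3, so the groups do not overlap although the test was not passed. No complex III gene was called. The lowest there was Uqcrfs1, the Rieske iron-sulfur protein, at -0.16 (SE 0.04, adjusted p = 0.0831). Without P3 replicate 2, 1 of the 9 probe-sets of complex II and 1 of the 16 of complex III were called, and 1 of complex III was also called without null replicate 3, all of them lower in P5.

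Complex IV was evenly divided, with 5 of its 10 bright genes above 0 and 5 below. Cox6a1 gave 14.99, 15.00 and 14.96 in P5 and rose by 0.11 over P3 (SE 0.02, adjusted p = 0.0199), a call lost without P3 replicate 1 or 3 or P5 replicate 1 or 2, with adjusted p of 0.0654 to 0.0789. Since both comparisons use the same P3 arrays, whose 3 values for Cox6a1 span 0.01, its rises in the null and in P5 are not independent of each other. Cox6b2, the testis form of subunit VIb, had the largest difference at 0.82 (SE 0.21, adjusted p = 0.0684). It gave 8.31, 8.27 and 8.17 in P5 against 7.61, 6.94 and 7.74 in P3 and 7.15, 7.19 and 6.93 in the null, so P5 lay above both other groups, and the difference from P3 did not pass the test.

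**Figure D3:**
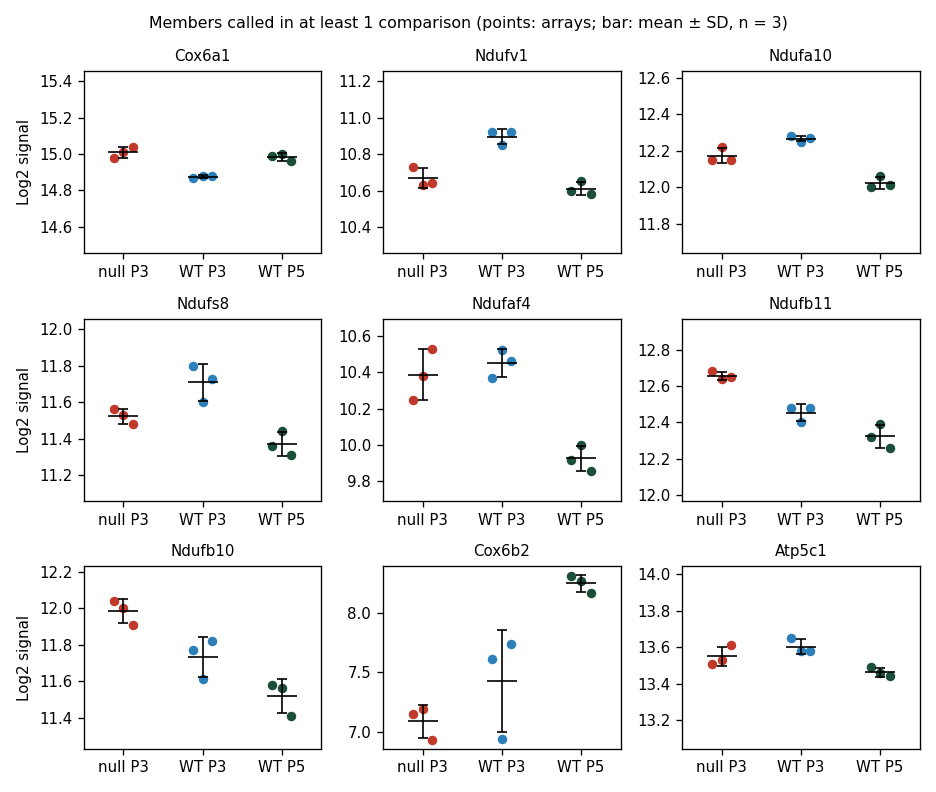
Log2 signal (y axis) of 9 members called in at least 1 comparison, by group (x axis). Points are the 3 arrays of a group, the line and bar are the mean ± SD (n = 3), and each panel spans at least 1 unit. Ndufv1 and Ndufs8 are shown by their second probe-set in brightness. Ndufa10 and Ndufaf4 are lowest in P5, Ndufb11 and Ndufb10 are highest in the null, and Cox6b2 is highest in P5.

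The third comparison, null against P5, sets the cells without Tgif1 beside the later passage, and it differs in both genotype and passage. Of the 189 probe-sets 7 rose and 2 fell in the null, 4.76% of the members against 7.22% of all probe-sets (3.58% rose and 3.65% fell). With a mean signal above 6 the shares were 6.12% of members and 18.2% of all. An unadjusted p under 0.05 was found for 40 members, again without a share of all probe-sets beside them. The 3 null arrays did not overlap with the 3 P5 arrays for 60 members (31.7%), against 20.9% over the array. These shares, here and in the next sentence, are not matched for signal. A mean signal above 6 was reached by 147 of the 189 members, against 14101 of 45101 probe-sets. The share without overlap among such probe-sets is not given. For null against P3 the groups did not overlap for 19 members (10.1%, with 10.9% over the array) and for P5 against P3 for 38 (20.1%, with 22.1%).

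Ndufb11 and Ndufb10, accessory subunits of the membrane arm of complex I, were highest in the null. Ndufb11 gave 12.68, 12.64 and 12.65 in the null, 12.48, 12.40 and 12.48 in P3 and 12.32, 12.39 and 12.26 in P5, with no overlap between any groups. It was higher in the null than in P5 by 0.33 (SE 0.04, adjusted p = 0.00465), a rise of 1.26-fold, and a second probe-set gave the same difference (0.33, SE 0.04, adjusted p = 0.00643). Both calls were kept with each array left out. Against P3 the difference of 0.20 (SE 0.04) did not pass the test (adjusted p = 0.0642).

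Ndufb10 gave 12.04, 12.00 and 11.91 in the null, 11.77, 11.61 and 11.82 in P3 and 11.58, 11.56 and 11.41 in P5. It rose by 0.46 over P5 (SE 0.07, adjusted p = 0.0147), or 1.38-fold, and the call was lost without null replicate 1 or 2, with adjusted p of 0.0506 and 0.057. Ndufa10 was also higher in the null than in P5, by 0.15 (SE 0.03, adjusted p = 0.0211), but not without P5 replicate 1 or 3 (adjusted p = 0.0684 and 0.0803). The probe-sets of Ndufaf4 rose by 0.46 (SE 0.08, adjusted p = 0.0222) and 0.43 (SE 0.08, adjusted p = 0.0242). The first of these was lost without null replicate 2 or any P5 array and the second without null replicate 2 or 3 or P5 replicate 2 or 3, with adjusted p up to 0.0827.

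In the same comparison Cox6b2 fell by 1.16 on the log2 scale (SE 0.21, adjusted p = 0.024), to 0.448 of its P5 level, the largest called difference of any subunit. The call was lost without any null or P5 array, with adjusted p of 0.0639 to 0.0911, although the size stayed between -1.21 and -1.08. Atp5pb encodes a subunit of the stalk that holds the ATP synthase in place, and its dimmer probe-set rose by 0.31 (SE 0.07, adjusted p = 0.0446). Its brightest probe-set differed by only 0.07 (SE 0.03, adjusted p = 0.232). The Atp5pb call was lost without any array except P3 replicate 2, with adjusted p up to 0.131.

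Across the 3 comparisons 15 probe-sets of 11 genes were called at least once, in 21 differences. When limma's prior variance was instead fitted as a trend on signal, with protection against extreme probe-sets, it called none of them (adjusted p of 0.0593 to 0.711), while 9, 17 and 23 members had an unadjusted p under 0.05 for null against P3, P5 against P3 and null against P5. None of the 189 members passed a stricter rule, an F test over the 3 groups at p under 0.0001 with a log2 difference of at least 0.5, which took 0.568% of all probe-sets for null against P3, 1.49% for P5 against P3 and 1.46% for null against P5. With the moderated test of each pair in place of the F test, again no member passed, and the shares of all probe-sets were 0.395%, 1.74% and 1.60%. Probe-sets of the same gene mostly moved alike. Over 42 genes with several bright probe-sets, the spread of the difference between null and P3 had a median of 0.07, and Ndufa12 was widest at 0.76. No gene had probe-sets called in opposite directions.

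The subunit genes shifted together from array to array by about as much as they differed between groups. For each of the 81 bright genes the signal on an array was set against its mean over the 9 arrays. The median of these shifts was 0.11, 0.02 and -0.06 on the null arrays, 0.09, -0.12 and 0.13 on the P3 arrays, and -0.06, -0.04 and -0.08 on the P5 arrays. Over all 8384 bright genes it stayed between -0.02 and 0.02 on every array. Thus P3 replicate 2 and null replicate 3 lay low within their groups, and the P5 arrays lay close together. The 8384 bright genes were not matched to the 81 genes for signal, here, above or below. The mean signals of the member genes had a median of 12.14, and that of the 8384 genes is not given. Whether other genes of such high signal shifted in the same way was not tested.

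These shifts ran through most complexes. P3 replicate 2 was the lowest of its group for 69 of the 81 genes (85.2%, with 48.4% of all bright genes), and null replicate 1 was the highest of its group for 63 (77.8%, with 46.0%). Null replicate 3 was the lowest of its group for 63 (77.8%, with 33.7%). The medians for P3 replicate 2 were -0.13 in complex I, -0.09 in complex II, -0.15 in complex III, -0.14 in complex IV and -0.11 in complex V. Null replicate 1 also had the highest mean of the muscle markers (6.67) and of the macrophage markers (5.06), and their part in the shift was not tested.

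**Figure D4:**
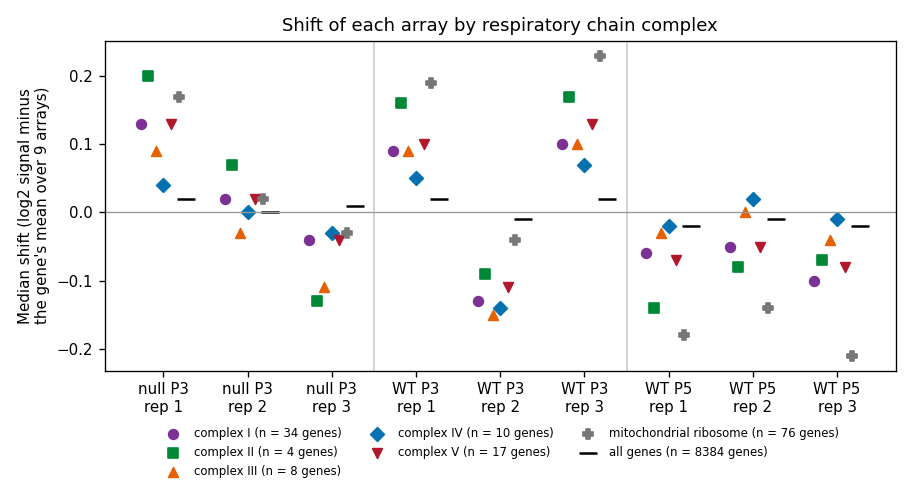
Median shift (y axis, log2 signal minus the mean of the same gene over 9 arrays) on each array (x axis), for genes with a mean signal above 6. Symbols are the 5 complexes, mitochondrial ribosome genes and all genes, with their numbers in the legend. P3 replicate 2 lies below 0 for all 5 complexes while P3 replicates 1 and 3 lie above it.

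The spread of these genes was uneven between groups. The median SD over 3 arrays was 0.146 in P3, 0.101 in the null and 0.0449 in P5, against 0.12, 0.127 and 0.0747 over all bright genes. Leaving out P3 replicate 2 changed the passage comparison most. It then had 2 members that rose and 27 that fell, with a median of -0.15 over the 90 genes, and 9.10% of all probe-sets were called. Leaving out P3 replicate 3 left 3 members, all of which fell, P3 replicate 1 left 5, and P5 replicates 1, 2 and 3 left 4, 6 and 5. Of all probe-sets, 4.6% to 6.42% were called with 1 of these arrays left out. Between null and P3 no member was called without null replicate 3, P3 replicate 1 or 3, or P5 replicate 1 or 2, while 5 were called without null replicate 1 or P3 replicate 2, 1 without null replicate 2, and 2 without P5 replicate 3. Of all probe-sets, 1.43% were called without null replicate 1, 1.46% without P3 replicate 2, and 0.565% to 1.02% without any other array. Between null and P5, 13 were called without P3 replicate 2, 6 without null replicate 1 or 3, and 4 or 5 without null replicate 2 or any P5 array. Over the whole array 7.41% were called without P3 replicate 2, and 3.89% to 6.01% without any other array.

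Genes that serve the same pathway were read from fixed lists, beside shares of all 18194 genes called of 2.58% between null and P3 and 13.2% between P3 and P5, or 4.76% and 24.7% of those with a mean signal above 6. The shares of list genes called with passage were 4.65% of assembly factors, 12.5% of carriers, 6.25% of citric acid cycle genes, 7.14% of genes for mitochondrial DNA, 21.4% of nuclear regulators and 27.6% of mitochondrial ribosome genes, and the differences between these shares and those of all genes were not tested. With the prior fitted to signal, 2 mitochondrial ribosome genes were called with passage and no gene of the other pathway lists. Of 43 measured assembly factors of the complexes, Ndufaf genes included, none was called between null and P3 (3 at an unadjusted p under 0.05), while 2 fell between P3 and P5. These were Ndufaf4 and Ecsit, a signalling protein that also takes part in building complex I. Ecsit gave 6.81, 6.79 and 6.93 in P5 against 7.25, 7.14 and 7.14 in P3, a decrease of 0.33 (SE 0.05, adjusted p = 0.012). Without P3 replicate 2, 2 assembly factors rose and 8 fell, and without P5 replicate 1 none was called (adjusted p = 0.0512 for Ecsit).

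Among 16 electron carriers and carriers of ADP, ATP and phosphate, none was called between null and P3 (2 at an unadjusted p under 0.05) and 2 fell with passage. Dhodh, which makes pyrimidines and feeds electrons to ubiquinone, gave 6.76, 6.89 and 6.71 in P5 against 7.30, 7.32 and 7.34 in P3 and fell by 0.54 (SE 0.06, adjusted p = 0.0038). Cycs, cytochrome c, fell by 0.28 (SE 0.04, adjusted p = 0.012). Without null replicate 3 there were 2 that rose and 2 that fell, and without P5 replicate 2 there was 1 that fell. Of 16 genes of the citric acid cycle and pyruvate dehydrogenase, 1 fell in the null against P3, which was Suclg2, a subunit of succinyl-CoA ligase, by 0.39 (SE 0.04, adjusted p = 0.0145). Idh3g, a subunit of isocitrate dehydrogenase, fell by 0.32 (SE 0.06, adjusted p = 0.0217) between P3 and P5, a call lost without P3 replicate 1 or 3 or any P5 array (adjusted p of 0.0596 to 0.0845).

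Of 14 measured nuclear regulators of mitochondrial genes, none was called between null and P3 (3 at an unadjusted p under 0.05) and 3 fell between P3 and P5. Pprc1, a coactivator of the PGC-1 family, gave 8.96, 9.06 and 9.08 in P5 against 9.51, 9.44 and 9.48 in P3, a decrease of 0.45 (SE 0.05, adjusted p = 0.005). Gabpb1, a partner of the GABPA factor, fell by 0.37 (SE 0.06, adjusted p = 0.0175), and Ppargc1b, a PGC-1 coactivator with dim signals of 2.40 to 3.94, fell by 0.87 (SE 0.19, adjusted p = 0.0419). Without P3 replicate 1, P5 replicate 1 or P5 replicate 2 only 1 of the list was called. The Pprc1 call was kept with each array left out, that of Gabpb1 was lost without these 3 arrays and that of Ppargc1b without any array but null replicate 2 and P3 replicate 2. Of 14 genes for the replication and expression of mitochondrial DNA, Ssbp1, which coats single-stranded mitochondrial DNA, fell by 0.24 between P3 and P5 (SE 0.05, adjusted p = 0.0263) and none was called between null and P3 (2 at an unadjusted p under 0.05). The Ssbp1 call was lost without null replicate 2 or 3, P3 replicate 1 or 3, or P5 replicate 2 or 3 (adjusted p of 0.0529 to 0.0861), and without P3 replicate 2 the list had 3 genes that fell.

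The mitochondrial ribosome, which translates the core subunits encoded in mitochondrial DNA, also had a median below 0 with passage. Of 76 measured genes 1 rose and 20 fell between P3 and P5 (27.6%, with 24.7% of all genes with a mean signal above 6). Their median was -0.31, beside a median of -0.10 for the 81 bright oxidative phosphorylation genes, and the difference between these medians was not tested. Mrpl47 gave 10.15, 10.14 and 9.99 in P5 against 10.84, 10.65 and 10.83 in P3 and fell by 0.68 (SE 0.06, adjusted p = 0.00218). Mrpl18 fell by 0.60 (SE 0.05, adjusted p = 0.00177). The gene that rose was Mrpl10, by 0.29 (SE 0.04, adjusted p = 0.0125), named after its value was seen because it went against the rest. Between null and P3 no mitochondrial ribosome gene was called, the median was -0.06, and 10 had an unadjusted p under 0.05.

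With the prior fitted to signal the ribosome genes called with passage were Mrpl47 and Mrpl18 alone (adjusted p = 0.0206 and 0.0191). The number called also changed with single arrays. Without P3 replicate 2, 1 rose and 42 fell, whereas 2 genes were called without P3 replicate 1, 3 without P3 replicate 3, 13 without null replicate 2, and 6, 5 and 5 without P5 replicates 1, 2 and 3. On the array shifts the mitochondrial ribosome genes ran with the subunits, at 0.19, -0.04 and 0.23 in P3 and -0.18, -0.14 and -0.21 in P5. Other lists did not. On P3 replicate 2 the carriers lay at 0.09, citric acid cycle genes at 0.10 and genes for mitochondrial DNA at 0.11. Nuclear regulators lay at 0.20 there and at -0.19, -0.01 and 0.14 on the null arrays. Assembly factors lay at -0.02 on P3 replicate 2.

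**Figure D5:**
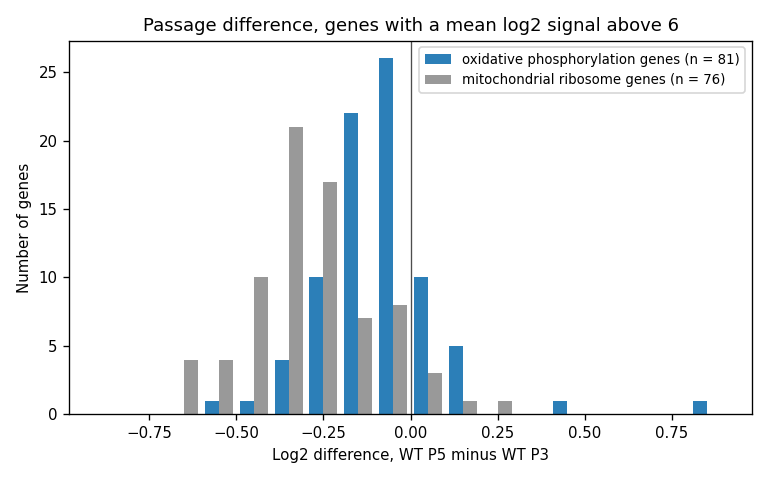
Number of genes (y axis) by log2 difference of P5 minus P3 (x axis, steps of 0.1), for the 81 oxidative phosphorylation genes with a mean signal above 6 and the 76 mitochondrial ribosome genes. Both sets lie mostly below 0, the ribosome genes farther, and Cox6b2 stands alone at 0.82.

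Many promoters of these genes share sequence features that the choice by name did not use. Nuclear genes for the complexes are known targets of the factors NRF1, GABPA (also called NRF2) and YY1. RefSeq start sites on the GRCm38.p6 build gave 79 windows, each from 250 bases before the start to 50 bases after it, for 74 of the 90 genes. The letters GCGCANGCGC (NRF1), searched on both strands, stood in 18 of the 79 windows (22.8%), in 4.60% of all 32851 windows and in 6.38% of the 21263 of protein-coding genes. CCGGAAG (GABPA) stood in 19 (24.1%, with 8.86% of all and 11.6% of protein-coding), and AANATGGC (YY1) in 17 (21.5%, with 6.05% and 6.37%). At least 1 of the 3 stood in 47 windows (59.5%), where 17.4% of all windows and 21.4% of those of protein-coding genes had one. A window that held several was counted once in this last share.

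The stretches before the start are shown for 3 genes with called probe-sets that bear on the passage comparison, Cox6a1, which rose, and Ndufs8 and Ndufv1, which fell. Each runs 5′ to 3′ on the minus strand of GRCm38.p6, with matches to these letters on either strand in capitals.
Cox6a1, chr5:115348959-115349208: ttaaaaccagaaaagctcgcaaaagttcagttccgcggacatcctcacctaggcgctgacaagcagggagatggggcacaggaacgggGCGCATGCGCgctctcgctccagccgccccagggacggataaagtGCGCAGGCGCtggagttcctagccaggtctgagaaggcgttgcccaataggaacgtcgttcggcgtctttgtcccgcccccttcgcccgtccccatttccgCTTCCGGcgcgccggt
Ndufs8, chr19:3912775-3913024: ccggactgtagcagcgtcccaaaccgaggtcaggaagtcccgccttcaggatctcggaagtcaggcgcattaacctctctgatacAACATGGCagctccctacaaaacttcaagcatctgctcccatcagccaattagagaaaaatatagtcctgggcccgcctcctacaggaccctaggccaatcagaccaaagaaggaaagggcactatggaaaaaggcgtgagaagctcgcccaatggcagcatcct
Ndufv1, chr19:4012756-4013005: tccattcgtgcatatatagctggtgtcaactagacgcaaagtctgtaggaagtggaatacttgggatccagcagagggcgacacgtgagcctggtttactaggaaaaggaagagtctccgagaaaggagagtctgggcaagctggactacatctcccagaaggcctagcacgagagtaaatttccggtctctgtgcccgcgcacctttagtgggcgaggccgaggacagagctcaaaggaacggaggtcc

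Cox6a1 had 2 NRF1 matches and 1 GABPA match in its stretch. That of Ndufs8 had 1 YY1 match, and that of Ndufv1 had no match to any of the 3. The stretches stop at the start, whereas the windows counted above run past it. In its window Ndufs8 had a GABPA match as well as the YY1 match. The Cox6a1 window again had NRF1 and GABPA matches, and that of Ndufv1 again had none. The 3 genes were picked by no fixed rule. Of other genes that fell with passage, Ndufaf4 and 1 window of Atp5c1 had an NRF1 match, and Ndufa10 had no match. Whether matches go with the direction of a difference was not tested. These are matches of letters in the sequence, and binding of the factors was not measured.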

How the data were processed

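RNA from 9 cultures was hybridized to Affymetrix MOE430_2.0 arrays. The authors deposited log2 signals made with GCRMA, which corrects background from probe sequence, normalizes the arrays together and summarizes probe-sets. No tool versions were stated for this step. No further normalization was applied to the log2 values that the authors deposited. Probe-sets were named by gene number through RefSeq's mouse table, with a single symbol for 34958, several for 932 and none found for 9211. Cox7b was not among the named probe-sets and is not analysed here.

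Means of 3 groups were fitted to all 9 arrays with limma 3.58.1 (R 4.3.3, default empirical Bayes step), each comparison was tested with the moderated test, and p was adjusted (Benjamini-Hochberg) across the whole array of 45101 probe-sets. The spread of a probe-set rested on 6 residual degrees of freedom and a prior worth 0.345. With 3 arrays against 3, an exact permutation test cannot give a p below 0.1. The fit was also run on simulated data with independent noise for each probe-set and changes larger than most member differences. That run did not cover shifts that genes share on an array, and no call above rests on it. Precision is limited by the 3 arrays of a group, which are separate cultures by the study's methods.

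The members, lists and naming rule were chosen with earlier results of these data known. Members were named when called (at most 4 for each complex and comparison), as tissue forms or as core subunits. A further Ndufs8 probe-set and genes given only as lowest or highest of their complex were added after their values were seen. List genes were named by smallest p, at most 2 for each list and comparison. Calls in the pathway lists between null and P5 are not described above. Ppargc1b was added to complete a count, and Actc1, Acta1, Neb, Ckm, Myh3 and Tnnc2 as examples of markers. Replicate numbers did not pair the samples (same-number correlations of deviations -0.488 to 0.393). Alternatives were an F test with the p and log2 thresholds of the methods, the pair-wise form of that rule, filters at a log2 signal above 4 or 6 on at least 3 arrays, a prior that follows the signal, quantile normalization, median centring, a replicate block, the 6 arrays of 2 groups, omission of x_at and s_at probe-sets, gene values averaged over probe-sets, and omission of each array.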

Additional observations from a re-analysis of the deposited data

How the results depend on the processing

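None of the 21 called differences of named members reversed under any alternative, and each was lost under at least 1. The most consequential setting was a prior for the spread fitted to the signal and robust to extreme values, under which no member was called in any comparison, with adjusted p from 0.0593 to 0.711 for the differences called by default, while 0.131%, 2.88% and 2.37% of all probe-sets were called for null against P3, P5 against P3 and null against P5. The cause was not tested. Of 123 named differences that were not called, 14 were called under at least 1 alternative. For null against P3 (3 called members), the count was 0 by the F test rule, 0 by its pair-wise form, 0 with the replicate block, 0 with only the 6 arrays, 1 without x_at and s_at probe-sets, 5 after quantile normalization and 6 after median centring. For P5 against P3 (9 called), it was 0 by either rule, 15 with either filter, 4 with the replicate block and 5 without x_at and s_at probe-sets. For null against P5 (9 called), it was 0 by either rule, 15 with a filter at 4 and 16 at 6, 2 with the replicate block and 4 with only the 6 arrays. Except for the F test rule and its pair-wise form, shares of all probe-sets under these settings are not given. These counts therefore have no background to be read against. With 1 array left out the counts ranged from 0 to 5, from 3 to 29 and from 4 to 13. Over these, the median difference of the 90 genes ranged from -0.07 to 0.02, from -0.15 to -0.04 and from 0.02 to 0.09, so its sign changed for null against P3 alone. The SD of the median between replicate arrays was 0.111, larger than each of the 3 medians. This is a spread of single arrays and not the error of a difference between group means. The signs of the medians were not tested, and none is taken as settled. Of 23 called differences of named genes from the lists, none reversed and 16 were lost under at least 1 alternative. These 23 are over all 3 comparisons and include differences between null and P5 that are not described above. The pair-wise rule, and leaving out arrays or changing the prior for the lists and complexes, were chosen after seeing the data. Signals near the lowest value cannot show a decrease.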
